A study of Mus musculus with 32 samples.

Results

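Heat shock protein genes were followed across all 32 RNA-seq libraries of mouse primary sternal chondrocytes, the cartilage cells of the newborn breastbone and ribs. The set held 10 genes of the 41388 in the deposited count files: Hspa1a, Hspa1b, Hspa8, Hsph1, Dnajb1, Hsp90aa1, Hspb1, Hspd1, Hspe1 and Bag3, matched by symbol to their Ensembl identifiers. The set was chosen by a measured value, the fall of Hspa1b after Ldha deletion, which was among the strongest, so every comparison within the LDHA flox libraries is given as values and fold changes, with no p-value for the 10 genes. The members, and the gene lists used below, were picked with earlier results of these data known. Their counts of passing genes are therefore not independent of that choice in any genotype. The cells were unpassaged C57BL/6 cultures from pups, kept in normoxia. Cells of 3 flox genotypes, LDHA flox, NAMPT flox and NFKBIZ flox, were infected for 24 h with adenovirus carrying GFP or Cre, and then left without or treated with IL-1b for a further 24 h. GFP was the control virus, and per the study's methods the Cre virus also carried eGFP, so every flox culture had received an adenovirus. No culture without a floxed allele received Cre virus, so Cre itself and loss of the targeted gene cannot be told apart. Wild type (WT) cells received no virus and were left untreated or given FX11 (40 uM), IL-1b (10 ng/mL) or both for 24 h. Each of the 16 groups held 2 libraries. IL-1b is an inflammatory cytokine, and FX11 is an inhibitor of lactate dehydrogenase A, the enzyme encoded by Ldha. Nampt encodes an enzyme of NAD salvage, and Nfkbiz encodes IκB-ζ, a nuclear cofactor of NF-κB.

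Heat shock proteins are chaperones that hold unfolded proteins and help them to fold. HSP70 proteins bind short exposed stretches of a client under the control of HSP40 partners, which start their ATP cycle, and of exchange factors such as HSP110 and BAG proteins, which end it, and HSP90 takes over many clients later. Most cells carry constitutive members at high levels, while Hspa1a and Hspa1b are kept low until stress frees heat shock factor 1 to bind heat shock elements, inverted repeats of the unit nGAAn, in their promoters.

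Library totals ran from 15830658 to 39959888 counts, and the lowest count of any of the 10 genes was 29, for Hspa1a in a WT library. Levels below are CPM after TMM scaling over all 32 libraries. The summed level of 7 chondrocyte markers was between 13000 and 82600 CPM in every library. A set of 12 libraries and a set of 20 differed in the form of their titles, WT, LDHA flox and NAMPT flox groups had 1 library in each, and all NFKBIZ flox libraries were in the larger set. The targeted genes followed the labels: in the flox libraries without IL-1b, Ldha was at 918 and 869 CPM with GFP virus and 118 and 111 CPM with Cre virus in LDHA flox cells, Nampt at 59.5 and 54.6 against 6.72 and 6.86 CPM in NAMPT flox cells, and Nfkbiz at 16.1 and 17.0 against 9.65 and 8.28 CPM in NFKBIZ flox cells. Mean Nfkbiz also went from 23.4 to 16.5 CPM with Cre virus in NAMPT flox cells, and from 17.05 to 18.3 CPM in LDHA flox cells. Its Cre effect did not differ between NAMPT and NFKBIZ flox cells in edgeR's quasi-likelihood test (adjusted p = 0.217). Under IL-1b its means with GFP and Cre virus were 232 and 30.9 CPM in NFKBIZ flox, 203 and 64.3 in NAMPT flox, and 171 and 68.3 in LDHA flox cells. The Nfkbiz level alone is thus a weak check of that deletion. In the WT libraries of the larger set, Mmp3, a matrix-degrading enzyme gene at 149.5 CPM or more in every flox library with IL-1b and at 3.063 CPM or less in every flox library without it, ran against the labels: it was at 2016 CPM in the library labelled FX11 and at 0.784 CPM in the library labelled IL-1b. The WT fold changes of Hspa1b are therefore given with and without these 2 libraries. The labels do not say whether the 2 libraries of a group came from separate cultures, so p-values measure only the spread between these libraries.

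Hspa1a and Hspa1b encode near-identical inducible HSP70 proteins and lie next to each other on chromosome 17 of GRCm38, each as 1 exon on the minus strand (Hspa1a, ENSMUSG00000091971, 34969190 to 34972156, and Hspa1b, ENSMUSG00000090877, 34956436 to 34959238). Of all 100-base windows of the Hspa1a exon, 47.1% also occurred in Hspa1b, against 58.8% of 50-base and 38.1% of 150-base windows. For Hspa1b, 49.9% of 100-base windows occurred in Hspa1a. A read wholly within such windows, with no paired read outside them, cannot be counted for either gene under the stated rule of unique alignment. The read length and the pairing of reads were not used here, so the share of reads lost is not known. The pair are therefore not independent measurements, and their split is uncertain. A total of 19.0% of the Hspa1a exon also lay under an exon of Gm20481, annotated on the other strand, and Gm20481 had 0 counts in every library, while the strand setting of the counting was not given in the sources used here. Promoter windows of 300 bases, 250 before and 50 after the start site, were found in RefSeq sequence of GRCm38.p6 for 8 of the 10 genes. They were searched on both strands for a pair of heat shock units, GAANNTTC or TTCNNGAA, and for 3 alternating units, GAANNTTC followed by NNGAA, or the reverse complement. These genes had 11 windows, 1 for each start site listed. A pair was found in 8 of the 11 windows, of 7 genes, against 15.1% of all 32851 promoter windows, and 3 alternating units in 4 of the 11, of Hsph1, Hspd1 and Hspe1, against 0.603% of all windows. For Hspd1 the match was in the window of a start site 311 bases from the end of the gene as annotated, and its other window held none. The windows of Hspa1a and Hspa1b were the same at 296 of 300 positions, and each held the pair GAANNTTC 1 time. Hspd1 and Hspe1 lie head to head on chromosome 1 and share the same stretch of alternating units, and their exons overlap by 112 bases. The Hsph1 windows overlap and hold the same match of 3 units, which begins 37 and 16 bases after their start sites. The 4 windows with 3 alternating units are thus not separate matches. No match was found in either window of Dnajb1. The windows of the HSP70 pair, of Hsph1 and of Hspe1 are shown because they carry the 3 arrangements found, with the matched units in capitals:
Hspa1a, chr17:34972107-34972406, minus strand: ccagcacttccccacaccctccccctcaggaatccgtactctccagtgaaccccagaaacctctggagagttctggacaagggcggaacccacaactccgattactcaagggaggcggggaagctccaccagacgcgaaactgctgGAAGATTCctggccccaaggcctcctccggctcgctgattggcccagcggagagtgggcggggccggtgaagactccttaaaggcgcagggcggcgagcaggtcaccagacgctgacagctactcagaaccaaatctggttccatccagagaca
Hspa1b, chr17:34959189-34959488, minus strand: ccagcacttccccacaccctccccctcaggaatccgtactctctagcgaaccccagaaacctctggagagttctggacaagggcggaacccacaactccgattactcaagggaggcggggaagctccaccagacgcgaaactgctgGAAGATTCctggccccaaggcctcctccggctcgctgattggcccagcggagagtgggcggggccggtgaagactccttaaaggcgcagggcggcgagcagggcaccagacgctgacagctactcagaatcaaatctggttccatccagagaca
Hsph1, chr5:149636287-149636586, minus strand: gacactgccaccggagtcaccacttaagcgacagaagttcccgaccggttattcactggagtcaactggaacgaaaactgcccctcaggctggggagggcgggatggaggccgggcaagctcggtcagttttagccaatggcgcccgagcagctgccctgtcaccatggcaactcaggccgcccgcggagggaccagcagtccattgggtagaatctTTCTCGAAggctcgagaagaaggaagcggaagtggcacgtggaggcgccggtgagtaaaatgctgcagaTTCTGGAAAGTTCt
Hspe1, chr1:55087898-55088197, plus strand: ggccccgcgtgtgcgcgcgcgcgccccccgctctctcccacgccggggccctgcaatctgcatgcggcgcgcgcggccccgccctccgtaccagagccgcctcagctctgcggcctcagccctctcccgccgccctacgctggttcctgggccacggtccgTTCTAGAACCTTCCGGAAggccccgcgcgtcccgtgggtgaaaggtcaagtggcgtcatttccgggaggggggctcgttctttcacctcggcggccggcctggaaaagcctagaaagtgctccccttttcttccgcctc

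The inducible HSP70 genes were at their highest in cells that had received GFP virus. This held in NAMPT flox and NFKBIZ flox cells, and in the LDHA flox cells that chose the set. In LDHA flox cells with GFP virus, Hspa1b was at 97.2 and 109 CPM and Hspa1a at 45.7 and 62.6 CPM. After Cre, the Hspa1b values were 11.3 and 13.9 CPM and those of Hspa1a 3.25 and 4.12 CPM. The log2 fold changes were -3.06 for Hspa1b and -3.91 for Hspa1a. Under IL-1b the GFP libraries reached 683 and 802 CPM for Hspa1b against 31.1 and 31.4 CPM after Cre, a log2 fold change of -4.55. Hspa1a stood at 290 and 403 CPM with GFP virus and IL-1b and at 16.2 and 18.3 CPM with Cre virus and IL-1b, a log2 fold change of -4.31. These are the values that chose the set, so they are given as description only. As background, 5.52% of 15880 genes passed edgeR's test for Cre against GFP virus in LDHA flox cells without IL-1b (3.43% higher and 2.09% lower), and 34.0% did under IL-1b (16.9% higher and 17.0% lower). The falls within the 2 title sets were -3.10 and -2.97 for Hspa1b without IL-1b and -4.46 and -4.68 with it.

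The fall was not limited to Ldha deletion. In NAMPT flox cells Hspa1b was at 207 and 224 CPM with GFP virus and at 13.4 and 14.5 CPM after Cre, a 15.6-fold fall (log2 fold change -3.97 ± 0.10 SE, adjusted p = 5.74e-09, edgeR's quasi-likelihood test with Benjamini-Hochberg adjustment over 16136 genes, n = 2 libraries per group). Hspa1a fell 24.7-fold there, from 101 and 131 CPM to 4.49 and 4.99 CPM (adjusted p = 9.03e-08). NFKBIZ flox cells had 65.7 and 90.1 CPM of Hspa1b with GFP virus and 12.0 and 10.4 CPM after Cre, a 7.01-fold fall (log2 fold change -2.81 ± 0.16 SE, adjusted p = 6.45e-07). Hspa1a fell 11.6-fold in these cells, from 32.7 and 48.1 CPM to 3.29 and 3.73 CPM (adjusted p = 4.08e-07). Groups did not overlap in any of these comparisons, but the share of all genes with no overlap between groups of 2 libraries was not computed. With the counts of the pair summed, the fall was 17.9-fold in NAMPT flox and 8.10-fold in NFKBIZ flox cells (adjusted p = 2.04e-08 and 2.73e-07).

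**Figure D1:**
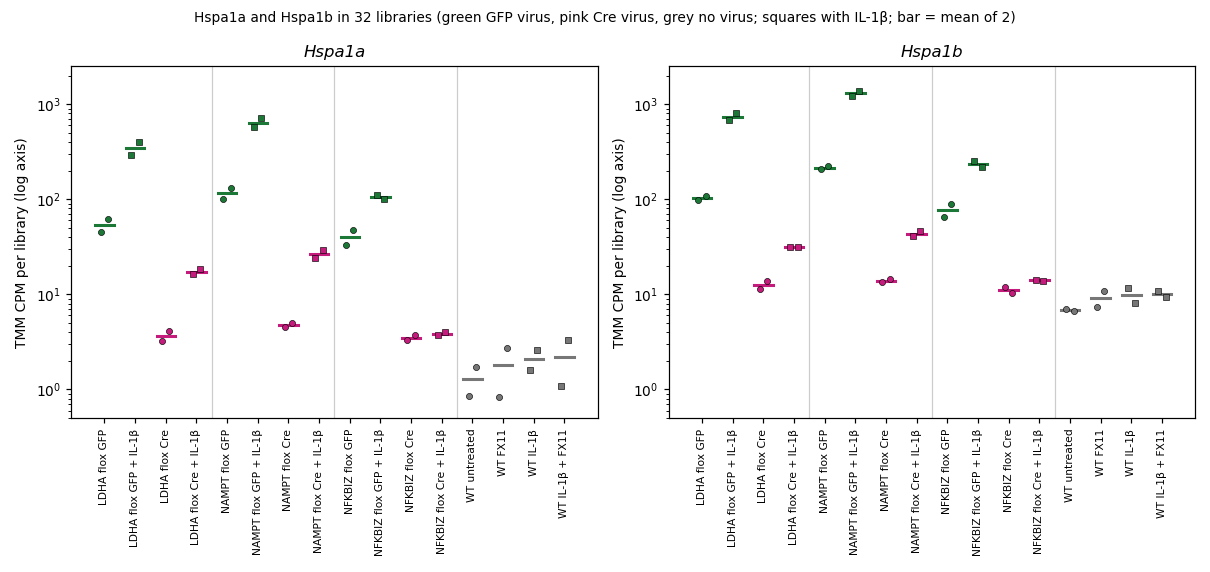
Hspa1a and Hspa1b in each of the 32 libraries, as TMM-scaled CPM on a log axis, by group, with a bar at the mean of the 2 libraries. GFP-virus libraries stand above the Cre-virus libraries of the same genotype and IL-1b condition, and the WT libraries without virus lie at 0.834 to 3.34 CPM for Hspa1a and 6.62 to 11.7 CPM for Hspa1b.

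Cells without virus had the lowest medians of both transcripts, with ranges that overlapped those of Cre-virus cells without IL-1b and lay below those of GFP-virus cells. Over the 8 WT libraries Hspa1a ran from 0.834 to 3.34 CPM (median 1.67) and Hspa1b from 6.62 to 11.7 CPM (median 8.81), whatever the treatment. The 6 GFP-virus libraries without IL-1b ran from 32.7 to 131 CPM for Hspa1a (median 55.4) and from 65.7 to 224 CPM for Hspa1b (median 103). In the 6 Cre-virus libraries without IL-1b they were 3.25 to 4.99 CPM (median 3.92) and 10.4 to 14.5 CPM (median 12.7). The GFP median was thus 33.2 times the WT median for Hspa1a and 11.7 times for Hspa1b, and the Cre median 2.35 and 1.44 times. This is a description with no test: virus, flox genotype and the longer culture cannot be told apart between WT and flox cells, and summed transcripts of 5 leukocyte markers were also higher in WT (82.1 to 220 CPM) than in GFP-virus libraries (12.6 to 23.2 CPM). The summed level of 5 fibroblast and perichondrium markers was 2990 to 6860 CPM in WT against 657 to 4070 CPM, and that of 4 skeletal muscle markers 21.4 to 216 CPM against 5.15 to 33.1 CPM. The part of these markers in the difference was not tested. In bulk RNA, fewer cells of a type and less RNA per cell cannot be told apart.

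The split between the pair differed between libraries. Per kilobase of exon and without IL-1b, the Hspa1a level was 0.444 to 0.553 times that of Hspa1b in the GFP-virus libraries (median 0.487) and 0.260 to 0.337 times in the Cre-virus libraries (median 0.299). With IL-1b the 2 ranges overlapped, at 0.4 to 0.481 times with GFP virus (median 0.441) and 0.248 to 0.596 times with Cre virus (median 0.521). Over the 8 WT libraries the ratio was 0.0954 to 0.334 (median 0.183). These ratios are of levels per length and rest on the reads that could be assigned to 1 of the copies.

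Among the other 8 genes, the changes with Cre virus without IL-1b were small. In NAMPT flox cells 7 of the 10 genes passed the test, 6 lower and 1 higher, where 14.4% of all genes tested did (8.30% higher and 6.07% lower), and the median log2 fold change of the 10 genes was -0.34 against -0.02 over all genes. Hspe1, the HSP10 co-chaperonin of mitochondria, fell from 127 and 126 CPM to 94.6 and 92.8 CPM (log2 fold change -0.44 ± 0.06 SE, adjusted p = 0.000675). Hsph1, an HSP110 exchange factor, fell from 155 and 140 CPM to 116 and 111 CPM, a log2 fold change of -0.39 (adjusted p = 0.00226). Hspa8, the constitutive cytosolic HSP70, fell from 1857 and 1730 to 1432 and 1388 CPM (adjusted p = 0.00106). Bag3, a co-chaperone that links HSP70 to selective autophagy, fell by 0.21 on the log2 scale (adjusted p = 0.0328), and did not pass with no filter on low counts (adjusted p = 0.123) or with any 1 of the 4 libraries left out. The small heat shock protein gene Hspb1 rose, from 32.01 and 32.43 to 41.8 and 41.9 CPM (adjusted p = 0.00345). Hspd1, the mitochondrial HSP60 chaperonin, Hsp90aa1, the stress-inducible cytosolic HSP90, and Dnajb1, an HSP40 partner of HSP70, had log2 fold changes of -0.33 (adjusted p = 0.0619), -0.11 and -0.10 that did not pass. With the title set as a block, Hspd1 (adjusted p = 2.5e-07) and Hsp90aa1 (adjusted p = 0.0157) passed as well, and with all 32 libraries in 1 model 2 genes passed.

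In NFKBIZ flox cells the HSP70 pair passed, 2 of 10 genes where 0.260% of 15356 genes did (0.111% higher and 0.150% lower). Hspa8 was at 1787 and 1705 CPM with GFP virus and 1242 and 1378 CPM after Cre, a log2 fold change of -0.43 with an adjusted p of 0.234. It passed in DESeq2 (adjusted p = 0.0102), in limma's voomWithQualityWeights (adjusted p = 0.0341) and with no filter on low counts (adjusted p = 0.00565). The other 7 had log2 fold changes between -0.34 (Hsph1) and -0.12 (Hsp90aa1). In LDHA flox cells, with no p-value given, the log2 fold changes of the 8 genes ran from -0.20 (Bag3) to 0.24 (Hspb1).

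**Figure D2:**
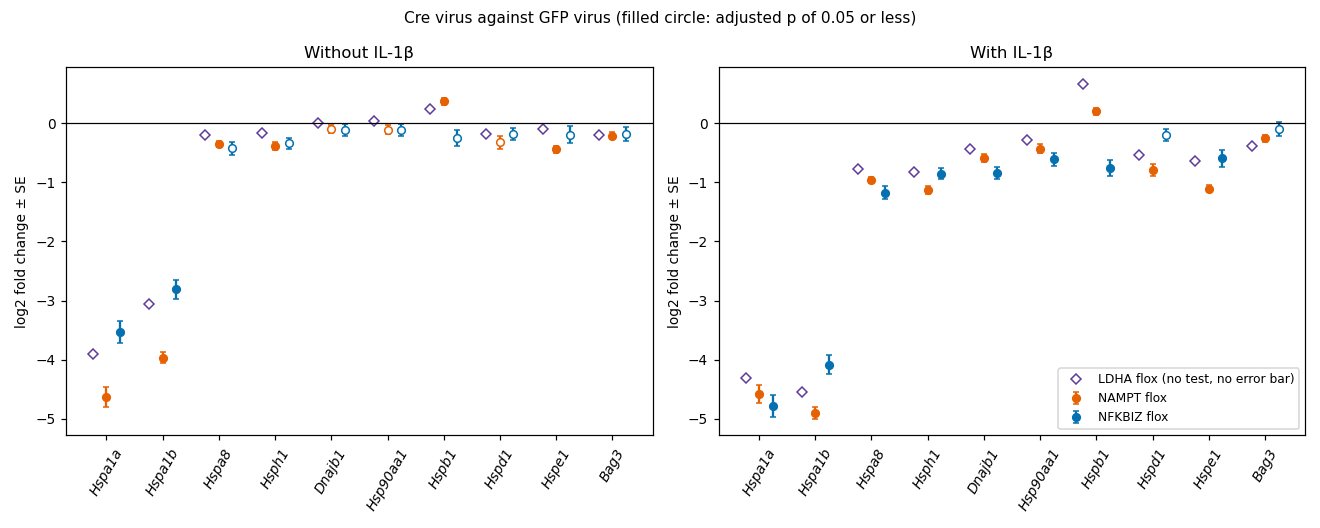
Log2 fold change of Cre virus against GFP virus for the 10 genes, without (left) and with (right) IL-1b, with SE for the genotypes tested (filled where the adjusted p is 0.05 or less) and open diamonds with no test shown for LDHA flox. Hspa1a and Hspa1b lie between -2.81 and -4.90 in all 3 genotypes, while no other gene goes below -1.18. LDHA flox is the genotype whose values chose the set.

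Under IL-1b the fall after Cre took in most of the set. All 10 genes passed in NAMPT flox cells, 9 lower and 1 higher, where 48.4% of all genes did (25.0% higher and 23.4% lower), and the median log2 fold change was -0.88 against -0.03 over all genes. Hspa1b fell 29.8-fold, from 1227 and 1389 to 40.7 and 46.3 CPM (adjusted p = 2.91e-10), and Hspa1a 23.9-fold, from 576 and 708 to 24.1 and 29.2 CPM. Hsph1 fell 2.18-fold, from 355 and 361 to 161 and 164 CPM (adjusted p = 1.89e-07). Hspe1 fell 2.16-fold, from 167 and 157 to 72.6 and 76.3 CPM, below its level in any GFP library. Hspa8 fell 1.94-fold, from 3823 and 3802 to 1919 and 1962 CPM (adjusted p = 1.35e-07). The falls of Hspd1, Dnajb1, Hsp90aa1 and Bag3 were smaller and passed, with log2 fold changes of -0.80, -0.59, -0.43 and -0.25, and Hspb1 rose 1.15-fold. Hspb1 did not pass in DESeq2 (adjusted p = 0.0534) or with any 1 of these 4 libraries left out.

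NFKBIZ flox cells showed 8 of the 10 genes lower under IL-1b and none higher, where 17.4% of all genes passed (8.16% higher and 9.20% lower), with a median of -0.80 against -0.01 over all genes. Hspa1b fell 17.0-fold, from 255 and 218 to 14.3 and 14.0 CPM, and Hspa1a 27.6-fold, from 110 and 101 to 3.74 and 4.00 CPM (adjusted p = 3.85e-09 for both). Hspa8 was at 2835 and 2803 CPM with GFP virus and at 1316 and 1209 CPM after Cre, a 2.26-fold fall. Dnajb1 fell from 63.7 and 65.6 to 38.4 and 34.9 CPM (1.78-fold) and Hsph1 from 166 and 157 to 93.3 and 87.6 CPM (1.81-fold). Hspb1 fell 1.70-fold in these cells (adjusted p = 0.0017). Hsp90aa1 and Hspe1 fell 1.53-fold and 1.51-fold, and the log2 fold changes of Hspd1 (-0.20) and Bag3 (-0.09) did not pass. In LDHA flox cells, with no test, the log2 fold changes under IL-1b were -0.82 for Hsph1, -0.77 for Hspa8, -0.63 for Hspe1, -0.54 for Hspd1, -0.44 for Dnajb1, -0.38 for Bag3, -0.29 for Hsp90aa1 and 0.66 for Hspb1.

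The Cre effect was compared directly between NAMPT flox and NFKBIZ flox cells in 1 model with the title set as a term. For the HSP70 pair without IL-1b, these genotypes differed mainly in their GFP levels. Mean Hspa1b was 216 CPM in NAMPT flox and 77.9 CPM in NFKBIZ flox cells with GFP virus, and 13.9 and 11.2 CPM after Cre. Mean Hspa1a was 116 and 40.4 CPM with GFP virus, and 4.74 and 3.51 CPM after Cre. Without IL-1b, 3 of 10 genes differed, where 3.45% of 16515 genes did (1.82% higher and 1.63% lower): Hspa1a and Hspa1b fell further in NAMPT flox cells by 1.08 ± 0.23 SE and 1.16 ± 0.18 SE on the log2 scale (adjusted p = 0.0134 and 0.00115), and Hspb1 had a log2 fold change higher by 0.61 (adjusted p = 0.0311). The number was 1 without either NAMPT flox Cre library, without the second NAMPT flox GFP library or without the second NFKBIZ flox Cre library. Under IL-1b 5 genes differed, where 33.3% of all genes did (16.7% higher and 16.6% lower). Hspb1 stood out in direction, with a log2 fold change higher by 0.93 ± 0.15 SE in NAMPT flox cells (adjusted p = 0.000117), where it rose, than in NFKBIZ flox cells, where it fell. Hspa1b, Hspd1, Hspe1 and Hsph1 fell further in NAMPT flox cells, by 0.85, 0.64, 0.55 and 0.31 on the log2 scale (adjusted p = 0.000908, 0.00045, 0.0209 and 0.0356). Hsph1 did not pass in DESeq2 (adjusted p = 0.0516), with RLE scaling (adjusted p = 0.05, rounded) or with no filter on low counts (adjusted p = 0.0944). The number was 3 without the first GFP or the first Cre library under IL-1b of either genotype, or without the second GFP library of NFKBIZ flox under IL-1b. With all 32 libraries in 1 model, 0 genes differed without IL-1b and 2 with it.

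IL-1b raised the whole set in NAMPT flox cells with GFP virus. All 10 genes passed, all higher, where 35.0% of all genes did (17.7% higher), and their median log2 fold change was 1.10 against 0.00 over all genes. Hspa1b rose 6.16-fold (adjusted p = 5.99e-09) and Hspa1a 5.62-fold (adjusted p = 2.42e-07), from the GFP values to the GFP and IL-1b values given above. Hsph1 rose 2.46-fold, Hspb1 2.28-fold from 32.01 and 32.43 to 72.4 and 72.1 CPM, Hspa8 2.16-fold, Dnajb1 2.14-fold from 41.4 and 43.6 to 86.6 and 92.0 CPM, and Hsp90aa1 2.00-fold from 667 and 597 to 1286 and 1206 CPM. The mitochondrial pair rose least, Hspd1 1.40-fold and Hspe1 1.31-fold, with Bag3 at 1.44-fold.

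In NFKBIZ flox cells with GFP virus 7 genes rose and 3 did not pass, where 26.8% of all genes passed (15.2% higher). Hspa1b rose 3.07-fold and Hspa1a 2.64-fold (adjusted p = 2.95e-06 and 1.81e-05). Dnajb1, Hspa8, Hsp90aa1, Hspb1 and Hsph1 rose by log2 fold changes of 0.83, 0.71, 0.69, 0.59 and 0.58. Hspd1 (255 and 247 CPM with IL-1b, 235 and 220 CPM without), Hspe1 (140.7 and 137.4 against 136.6 and 129.6 CPM) and Bag3 (135 and 126 against 128 and 152 CPM) did not pass. In LDHA flox cells the fold changes, with no test, were 7.19 for Hspa1b, 6.39 for Hspa1a, 2.11 for Hsph1, 2.01 for Hspa8, 1.98 for Hsp90aa1, 1.96 for Dnajb1 and 1.74 for Hspb1, and between 1.32 and 1.38 for Hspe1, Hspd1 and Bag3.

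**Figure D3:**
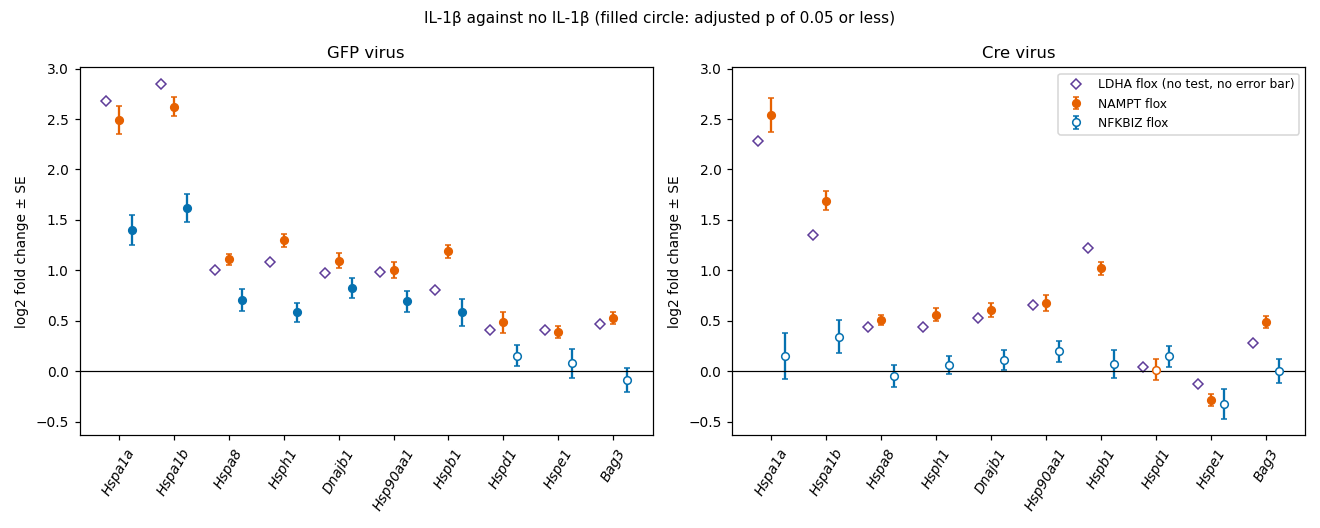
Log2 fold change of IL-1b against no IL-1b for the 10 genes, in cells with GFP virus (left) and with Cre virus (right), drawn as in the plot of the Cre effect. After Cre the NFKBIZ flox values lie between -0.32 and 0.34 with none filled, while the NAMPT flox values reach 2.54.

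After Cre, IL-1b still changed 9 of 10 genes in NAMPT flox cells, 8 higher and 1 lower, where 43.9% of all genes passed (24.3% higher and 19.6% lower). Hspa1a rose 5.82-fold, from 4.49 and 4.99 to 24.1 and 29.2 CPM, and Hspa1b 3.23-fold, from 13.4 and 14.5 to 40.7 and 46.3 CPM. Hspb1 rose 2.03-fold to 82.0 and 82.4 CPM, its highest level in any group. Hspe1 fell 1.22-fold (adjusted p = 0.00283), and Hspd1 had a log2 fold change of 0.01 ± 0.10 SE. LDHA flox cells after Cre had, with no test, fold changes of 4.85 for Hspa1a, 2.55 for Hspa1b and 2.33 for Hspb1, and log2 fold changes of -0.13 for Hspe1 and 0.04 for Hspd1.

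In NFKBIZ flox cells after Cre, 0 of 10 genes passed in edgeR's quasi-likelihood test, where 22.1% of all genes did (11.7% higher and 10.3% lower). At an unadjusted p under 0.05 it was 1 gene, and DESeq2 and voomWithQualityWeights called 0. Hspa1b was at 12.0 and 10.4 CPM without IL-1b and at 14.3 and 14.0 CPM with it (log2 fold change 0.34 ± 0.16 SE, adjusted p = 0.157), and Hspa1a at 3.29 and 3.73 against 3.74 and 4.00 CPM. The Hspe1 value was -0.32 ± 0.15 SE (adjusted p = 0.135), and the gene passed with no filter on low counts (adjusted p = 0.0382) and without the first Cre library under IL-1b (adjusted p = 0.00423). The difference of the IL-1b response after Cre between the genotypes was not tested.

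The difference of the IL-1b response after Cre from that with GFP virus was tested as an interaction. In NAMPT flox cells 6 genes responded less after Cre and none more, where 22.0% of all genes passed (12.0% higher and 9.98% lower). The size was -0.93 ± 0.13 SE on the log2 scale for Hspa1b, -0.74 for Hsph1, -0.67 for Hspe1, -0.60 for Hspa8, -0.49 for Dnajb1 and -0.47 for Hspd1 (adjusted p from 0.000262 to 0.042). Hspa1a had an interaction of 0.05 ± 0.21 SE in NAMPT flox cells (adjusted p = 0.903), and the summed counts gave -0.62 ± 0.15 SE (adjusted p = 0.0126). Hsp90aa1 had -0.32 (adjusted p = 0.0641) and passed with the title set as a block (adjusted p = 1.14e-06) and in DESeq2 (adjusted p = 0.0235). The weaker response was not limited to the set. Mmp3 had interactions of -2.92 in NAMPT flox and -3.07 in NFKBIZ flox cells (adjusted p = 7.1e-05 and 7.76e-06 in the same edgeR test). Under IL-1b its means with GFP and Cre virus were 864 and 153 CPM in NAMPT flox and 1804 and 282 CPM in NFKBIZ flox cells.

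In NFKBIZ flox cells 5 genes responded less after Cre, where 5.19% of all genes passed (1.69% higher and 3.50% lower): Hspa1b by 1.28 ± 0.22 SE, Hspa1a by 1.25 ± 0.27 SE, Hspa8 by 0.75, Dnajb1 by 0.71 and Hsph1 by 0.52 on the log2 scale (adjusted p from 0.00376 to 0.0368). Hspa1a did not pass in voomWithQualityWeights (adjusted p = 0.16). The number rested on single libraries. It was 1 without the first and 2 without the second GFP library under IL-1b, 3 without the first and 2 without the second GFP library, 3 without the second Cre library, and 8 without the first Cre library under IL-1b. With all 32 libraries in 1 model it was 0, as it was for NAMPT flox cells.

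FX11, which inhibits the enzyme that Ldha encodes, was used only on WT cells. None of the 10 genes passed for FX11 against untreated cells, for FX11 added to IL-1b, for IL-1b alone or for IL-1b with FX11 against untreated cells, in edgeR, DESeq2 or limma's voomWithQualityWeights, and none had an unadjusted p under 0.05 in edgeR. In edgeR, 0.00% of 15461 genes passed in each of these comparisons, with 68, 102, 153 and 860 genes at an unadjusted p under 0.05, and DESeq2 called 2, 1, 6 and 144 genes. Mmp3 did not pass in edgeR either, with a log2 fold change of 12.3 ± 5.06 SE for IL-1b alone. The 2 libraries that ran against their labels were kept in this fit. The lack of calls therefore does not show that the 10 genes were unchanged by FX11 or IL-1b. Hspa1b was at 6.94 and 6.62 CPM in untreated cells, 7.28 and 10.9 with FX11, 11.7 and 8.18 with IL-1b, and 10.9 and 9.45 CPM with both. The Hspa1b log2 fold changes were 0.44 ± 0.31 SE for FX11 against untreated cells, 0.03 ± 0.31 SE for FX11 added to IL-1b and 0.56 ± 0.31 SE for IL-1b alone. Without the library labelled FX11 and the library labelled IL-1b named above they were 0.10 ± 0.33, -0.20 ± 0.33 and 0.80 ± 0.32. The FX11 group and the IL-1b group then held 1 library each, so the SE rests on the spread of the other WT groups. The highest WT level of either gene lay below the lowest level with GFP virus.

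**Figure D4:**
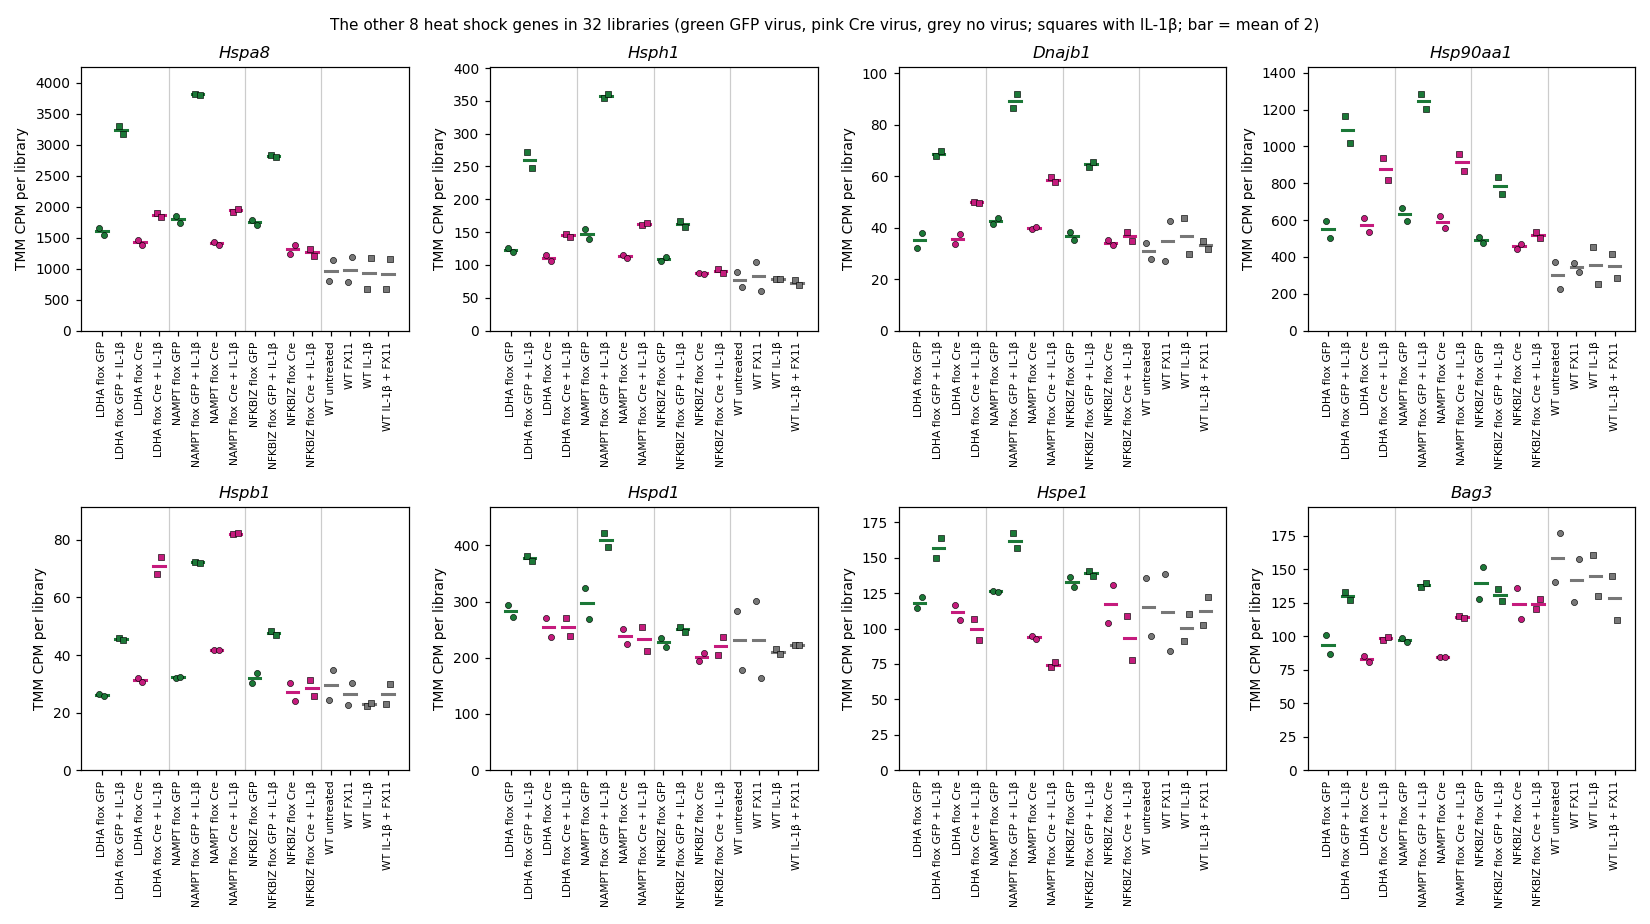
The other 8 genes in each of the 32 libraries, as TMM-scaled CPM on axes from 0, by group, with a bar at the mean of the 2 libraries. Hspa8, Hsph1, Dnajb1 and Hsp90aa1 peak in the GFP-virus groups with IL-1b, and Hspb1 peaks after Cre with IL-1b in LDHA and NAMPT flox cells. The Bag3 median is higher in WT cells than in any class of infected cells with genotypes pooled. NFKBIZ flox cells with GFP virus have a mean Bag3 of 140 CPM.

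The order of the genes by level per kilobase of exon is given by medians over all libraries of a class, whose genotypes differed. Hspa8 was the most abundant in every class of library, with a median of 232 CPM per kilobase in WT, 413 with GFP virus and 779 with GFP virus and IL-1b, and its lowest library stood above the highest of every other gene. Hsp90aa1 came next (87.2, 141 and 278 CPM per kilobase). In WT it could not be told from Hspd1 or Hspe1 by range, since these ran from 58.1 to 116, 61.9 to 114 and 57.2 to 94.2 CPM per kilobase. Hspa1b was the ninth of 10 in WT (3.14) and with Cre virus (4.52), below all 8 genes above it in range, and with GFP virus and IL-1b had a median of 265 CPM per kilobase, the third, overlapping Hsp90aa1 (189 to 327) over its range of 77.8 to 496. By genotype, its mean in those libraries was 467 CPM per kilobase in NAMPT flox cells, above Hsp90aa1 (317), and 84.4 in NFKBIZ flox cells, below Hspd1 (94.9) and Hspe1 (94.3). Hspa1a was the lowest in WT (0.561), and at 117 CPM per kilobase it overlapped Hspd1 and Hspe1 in GFP-virus libraries with IL-1b.

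Bag3 was at 112 to 177 CPM in WT (median 143), with medians of 99.7 CPM with GFP virus, 134 with GFP virus and IL-1b, 84.6 with Cre virus and 114.5 CPM with Cre virus and IL-1b. These medians pool genotypes that differed. With GFP virus, mean Bag3 was 93.7 CPM in LDHA flox, 97.1 CPM in NAMPT flox and 140 CPM in NFKBIZ flox cells. Hspe1 had medians of 106 CPM in WT, 126 with GFP virus, 153 with GFP virus and IL-1b, 105 with Cre virus and 85.0 CPM with Cre virus and IL-1b. Over the 32 libraries, the Pearson correlation of log2 CPM with Hspa1b was 0.98 for Hspa1a, 0.89 for Hsph1, 0.88 for Hspa8, 0.81 for Dnajb1, 0.78 for Hsp90aa1, 0.76 for Hspd1, 0.60 for Hspe1, 0.52 for Hspb1 and 0.03 for Bag3. Among 10873 genes with a mean of at least 5 CPM, those outside the set most like Hspa1b were Trrap (r = 0.973), Wdr26 (0.944), Ifrd2 (0.943), Lipg (0.939) and Vps37d (0.938). These are descriptions over libraries that share genotypes, virus and treatment, and that include the LDHA flox libraries that chose the set. Trrap, a scaffold of histone acetyltransferase complexes, had medians of 250 CPM in WT, 290 with Cre virus, 624 with GFP virus and 1509 CPM with GFP virus and IL-1b. Lipg, the endothelial lipase gene, had medians of 1.97, 3.35, 29.3 and 117 CPM in the same classes.

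Of 70 further genes in 8 lists of the heat shock response, 68 were tested in NAMPT flox cells, and 4 rose and 3 fell with Cre virus, where 14.4% of all genes passed, with a median log2 fold change of -0.05 against -0.02 over all genes. Serpinh1, the collagen chaperone, fell by 0.41, Hmox1, a heme oxygenase gene, fell by 0.45, Zfand2a rose by 0.43 and the distant HSP70 relative Hspa12a rose by 1.04 on the log2 scale. In NFKBIZ flox cells 0 of 67 passed for Cre against GFP in edgeR, where 0.260% of all genes did, 5 had an unadjusted p under 0.05, and DESeq2 and voomWithQualityWeights called 0. Hsf1, which encodes the main heat shock factor, was at 31.5 to 40.3 CPM with GFP virus, 27.6 to 37.8 CPM with Cre virus and 34.7 to 51.7 CPM in WT, and did not pass in any comparison described here. Hsf2, a second factor of the family, was at 9.61 to 16.2 CPM over all libraries and rose by 0.32 on the log2 scale with Cre virus under IL-1b in NAMPT flox cells (adjusted p = 0.0384).

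With GFP virus, IL-1b raised 24 and lowered 9 of the 68 genes in NAMPT flox cells, where 17.7% of all genes were higher and 17.3% lower. It raised 20 and lowered 6 of 67 in NFKBIZ flox cells, where 15.2% were higher and 11.7% lower. Of HSP90 and its cochaperones, 6 of 11 were higher in each genotype, and 1 and 0 were lower. Among those higher was Stip1, which bridges HSP70 and HSP90, with log2 fold changes of 0.62 and 0.84. Of 14 HSP40 genes, 4 and 3 were higher and 2 and 1 lower, with Dnaja1 at 0.86 and 0.62. Of 8 other HSP70 and HSP110 genes, 3 were higher and 1 was lower in each genotype. Hspa4l, an HSP110 relative, rose by 1.17 and 1.45 on the log2 scale. Of 10 other heat-inducible genes, 7 and 5 were higher, with Hmox1 at 1.54 and 0.83 and Clu, an extracellular chaperone gene, at 0.76 and 1.04, while Serpinh1 fell in both genotypes (-0.72 and -0.97). The small heat shock protein gene Cryab also fell, with log2 fold changes of -1.01 and -2.24. Of the 8 subunits of the CCT chaperonin, 1 and 0 passed.

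Under IL-1b, Cre virus lowered 16 and raised 24 of 68 in NAMPT flox cells, where 23.4% of all genes were lower and 25.0% higher. It lowered 15 and raised 3 of 67 in NFKBIZ flox cells, where 9.20% were lower and 8.16% higher. Hmox1 fell in both (log2 fold changes -1.88 and -1.23), as did Hspa4l (-0.92 and -0.85) and Dnaja1 (-0.26 and -0.89). Of the HSP90 list, 3 and 6 of 11 were lower, and 2 and 0 were higher. Of 14 HSP40 genes, 2 were lower in each genotype, and 6 and 1 were higher. Of 8 BAG and exchange factor genes, 0 and 1 were lower, and 4 and 0 were higher. Clu rose in NAMPT flox cells (0.45) and fell in NFKBIZ flox cells (-0.98), and Cryab fell in NAMPT flox cells (-0.43) and rose in NFKBIZ flox cells (1.88). In NAMPT flox cells the HSP40 gene Dnajb4 fell by 2.28 on the log2 scale, the small heat shock protein gene Hspb8 rose by 1.39 and Dedd2 rose by 1.90.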

How the data were processed

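RNA was rRNA-depleted (KAPA Ribo-Erase) and sequenced. According to the methods and the submitters' processing notes, the authors demultiplexed with bcl2fastq, aligned with STAR (2.0.4b in the notes, another version in the methods) to GRCm38, Ensembl release 76, and counted uniquely aligned, unambiguous reads with featureCounts (1.45 in the notes, another version in the methods). The deposited files give counts per gene, and CPM and RPKM derived from them (differing from the recomputed CPM by at most 4.9e-10). The deposited CPM and RPKM served only as checks. Symbols came from GENCODE M21, which named 40340 of 41388 identifiers. The members and lists were chosen with earlier results of these data known. Named genes were the 10 members, the targeted genes, Hsf1, Hsf2, Mmp3, the up to 4 called list genes with the smallest adjusted p in each comparison, and the 5 genes most correlated with Hspa1b.

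Counts were tested with edgeR 4.0.16 (glmQLFit and glmQLFTest, R 4.3.3), 1 model per genotype, TMM scaling, 355 rRNA genes left out, genes over 1 CPM in at least 1 library, and Benjamini-Hochberg adjustment over all genes with a threshold of 0.05. Replicates differed by 6.98 to 437 times the counting variance, so none was a duplicate. Deviations of same-set libraries correlated in NAMPT flox cells in every pair of groups (0.431 to 0.581 over 10874 genes), so the title set paired them. The main fits did not use this pairing. As a block it lowered the SE of Hspa1b for Cre against GFP virus in NAMPT flox cells from 0.10 to 0.05. Pairing was not examined in LDHA flox cells. Alternatives were DESeq2 1.42.0, limma 3.58.1, RLE scaling, 2 other filters, all libraries in 1 model, a block, summed Hspa1 counts and each library left out. Leaving out the 2 WT libraries that ran against their labels was chosen after seeing the data.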

Additional observations from a re-analysis of the deposited data

Results flagged for a closer look

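Results in which the response of the same gene differed between groups by a test of the difference itself are listed here. Under NAMPT flox, the IL-1b response after Cre less that with GFP virus was -0.93 for Hspa1b, -0.60 for Hspa8, -0.74 for Hsph1, -0.49 for Dnajb1, -0.47 for Hspd1 and -0.67 for Hspe1 on the log2 scale. Under NFKBIZ flox it was -1.25 for Hspa1a, -1.28 for Hspa1b, -0.75 for Hspa8, -0.52 for Hsph1 and -0.71 for Dnajb1. The Cre effect in NAMPT flox less that in NFKBIZ flox was -1.08 for Hspa1a, -1.16 for Hspa1b and 0.61 for Hspb1 without IL-1b. With IL-1b it was -0.85 for Hspa1b, -0.31 for Hsph1, 0.93 for Hspb1, -0.64 for Hspd1 and -0.55 for Hspe1. These comparisons share their libraries with the comparisons in the report. Groups of 2 libraries were too small to test for an outlying library.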

How the results depend on the processing

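Of 72 calls of a gene in a comparison, none changed direction in 898 values under the alternatives, 804 kept their side of the threshold and 94 did not pass, 34 of them with all 32 libraries in 1 model, 54 with 1 library left out and 6 under another setting. Genes that had not passed changed sign in 93 of 1140 values. Beyond those named in the report, Hspd1 passed for Cre against GFP in NAMPT flox in DESeq2 (adjusted p = 0.012) and Hsp90aa1 for the interaction in NFKBIZ flox in DESeq2 (adjusted p = 0.0281). With all 32 libraries in 1 model the number of genes called was 2 for Cre against GFP in NAMPT flox, 0 for the interaction in either genotype, and 0 and, under IL-1b, 2 for the difference of the Cre effect. Summing the pair gave 1 gene for Cre against GFP in NFKBIZ flox, since 2 genes became 1, and no filter gave 1 gene for IL-1b after Cre there. With 1 library left out, the numbers ran from 0 to 1 for IL-1b after Cre in NFKBIZ flox, from 1 to 8 for its interaction, and from 1 to 3 and, under IL-1b, from 3 to 5 for the difference of the Cre effect. Where a group is left with 1 library, that library is assumed to vary like the others. The cause was not tested. With the title set as a replicate block, NAMPT flox calls were 9 for Cre against GFP, 10 under IL-1b, 10 and 9 for IL-1b with GFP and Cre virus and 7 for the interaction, and the block changed no other call. In WT cells same-set deviations did not correlate in every pair of groups (lowest -0.24) and the block gave 0 calls. NFKBIZ flox libraries carry no pairing.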
